A study of Saccharomyces cerevisiae with 4 samples.

Results

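Inorganic phosphate enters budding yeast (Saccharomyces cerevisiae) through a small set of membrane transporters, and a signalling route named PHO sets how much of them is made. The 10 genes described here were taken by name from the 7445 rows of the deposited count table. They were the transporter genes PHO84, PHO89, PHO87, PHO90, PHO91 and GIT1 and the regulator genes PHO4, PHO80, PHO81 and PHO85. All 10 had enough reads to be tested. RNA was measured by sequencing in 2 libraries of a strain in which TRF4 was replaced by a resistance cassette (trf4::HphMX4, called trf4Δ) and in 2 libraries of the wild type. The Trf4 protein adds short poly(A) tails to nuclear RNA as part of TRAMP, and the exosome then trims or degrades that RNA. Both genotypes had the W303 background and were grown exponentially at 25 °C in YPDA, a rich medium with added adenine, to an OD600 of 0.8. Nothing in the labels says that the libraries of a genotype came from separate cultures or strain isolates, so p-values measure only the spread between these libraries.

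In phosphate-replete yeast the cyclin Pho80 and the kinase Pho85 phosphorylate the transcription factor Pho4, which then leaves the nucleus. When phosphate runs short, the inhibitor Pho81 blocks this kinase, and Pho4 turns on a regulon that includes the transporter Pho84, secreted acid phosphatases and the enzymes of polyphosphate storage. PHO84 is also known for a long antisense RNA that is transcribed across the gene and has been linked to its silencing when nuclear RNA decay is impaired.

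Library totals lay between 53516242 and 57964567 counts, and a floor of 3 counts was at most 0.0561 CPM (counts scaled to the library total), which covers counting error only. TRF4 itself, listed as PAP2, had 21 and 40 counts in trf4Δ libraries, against 8102 and 8468 counts in wild-type libraries, following the labels. Mating genes of a cells (5 of 5 listed, such as STE2 and MFA2) were expressed in every library. Their mean CPM in trf4Δ was 0.603 to 0.779 times that in the wild type, and all 5 passed the test used below, although MFA2 alone kept its call under scaling by library size alone. Among genes of alpha cells, MF(ALPHA)1 did not exceed 0.499 CPM in any library, and STE3 had 4.09 and 6.78 CPM in trf4Δ libraries, against 1.26 and 1.07 CPM in wild-type libraries. MF(ALPHA)2 lay between 4.42 and 6.43 CPM over the 4 libraries. SAG1 had 32.8 and 34.4 CPM in trf4Δ libraries, against 22.5 and 25.0 CPM in wild-type libraries, and both STE3 and SAG1 were called higher (log2 fold changes of 2.22 and 0.50). Their part in the results below was not tested. Levels are CPM with library sizes scaled by the trimmed mean of M values (TMM), and a log2 fold change is trf4Δ over wild type. They are relative to the other RNA of a library, so that less of one RNA per cell and more of the others cannot be told apart. The labels give no batch or date. Over all 6372 features tested, 60.1% had an adjusted p under 0.05, with 31.3% higher and 28.9% lower in trf4Δ.

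The known binding site of Pho4 is the 6-base motif CACGTG, with CACGTT as a weaker form, and the promoters are shown here because 6 of the genes carry it, of which PHO84 and PHO81 were lower, PHO89 and GIT1 were higher and PHO87 and PHO91 did not pass the test. Both strands were searched over the 600 bases before each start codon in the RefSeq R64 genome, the assembly that matches the build (sacCer3) named by the submitters. CACGTG was found before 6 of the 10 genes, against 7.21% of all 6021 protein-coding genes, and CACGTT before 5 of the 10, against 18.7% of all. In PHO84 the 2 CACGTG matches begin at -436 and -414 from the start codon and CACGTT matches begin at -587 and -262. The stretch from -600 to -401 is given 5′ to 3′ on the gene's strand, with both motifs in capitals. It lies wholly inside the open reading frame YML122C (chrXIII:26038-26418) and inside the annotated antisense RNA. The other lines give 20 bases on each side of the CACGTG match of 5 more genes.
PHO84, -600 to -401, chrXIII:26201-26400, minus strand: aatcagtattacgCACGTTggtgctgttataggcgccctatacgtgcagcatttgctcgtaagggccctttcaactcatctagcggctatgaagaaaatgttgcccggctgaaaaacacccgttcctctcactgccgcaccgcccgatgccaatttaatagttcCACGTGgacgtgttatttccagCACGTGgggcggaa
PHO81, match at -344, chrVII:958529-958574, minus strand: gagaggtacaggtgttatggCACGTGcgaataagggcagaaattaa
PHO89, match at -323, chrII:798820-798865, minus strand: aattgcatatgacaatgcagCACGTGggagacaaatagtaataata
GIT1, match at -518, chrIII:299098-299143, minus strand: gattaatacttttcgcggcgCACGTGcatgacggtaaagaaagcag
PHO87, match at -132, chrIII:197292-197337, minus strand: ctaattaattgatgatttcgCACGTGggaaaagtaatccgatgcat
PHO91, match at -201, chrXIV:651888-651933, minus strand: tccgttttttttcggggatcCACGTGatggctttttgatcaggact
A thymine directly before CACGTG on either strand is known to disfavour Pho4. Such a base flanked 1 of the 7 CACGTG matches of these genes, the one in PHO91, against 70.4% of the 494 matches before all protein-coding genes, where a match between divergent genes can be counted for each of them. PHO90, PHO4, PHO80 and PHO85 had no CACGTG in this window. A match is a description of the sequence and shows no binding.

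Of the 10 genes, 3 were higher in trf4Δ (GIT1, PHO89 and PHO85), 4 were lower (PHO84, PHO81, PHO90 and PHO4) and 3 did not pass the test (PHO87, PHO80 and PHO91). The 7 calls make 70.0%, beside 60.1% of all features, so the share itself is near the background. Libraries of the 2 genotypes did not overlap for 9 of the 10, beside 81.9% of all features. The median log2 fold change of the 10 genes was 0.04, beside 0.01 over all features, because members moved both ways. The question was which of the transport and control genes differ when TRF4 is absent, and the account follows their roles.

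**Figure D1:**
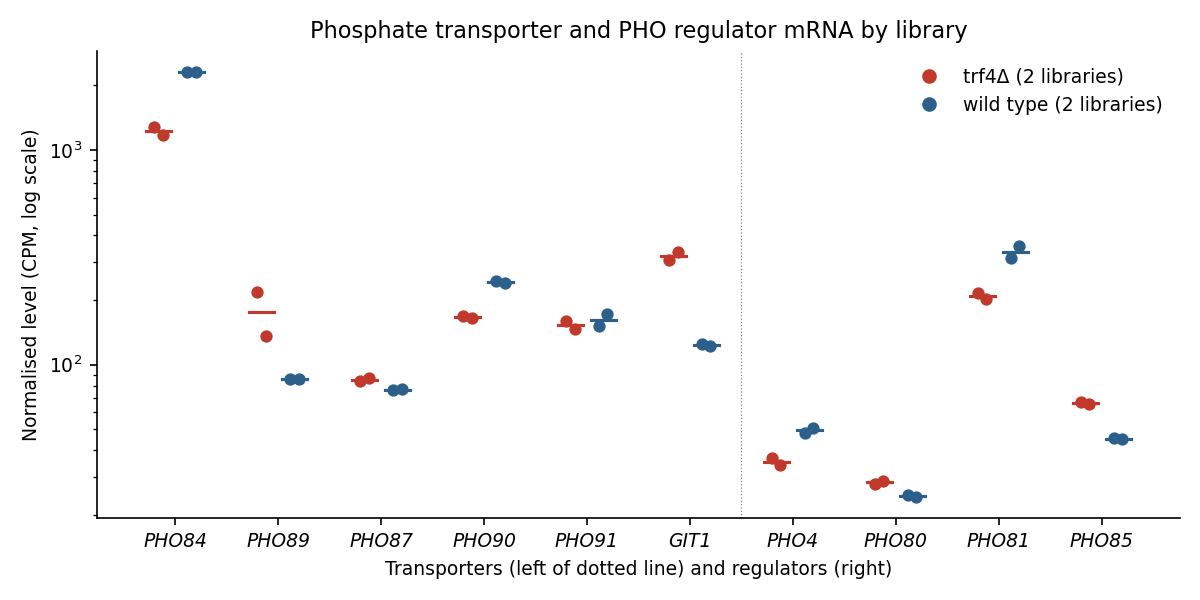
Normalised level in CPM (log axis) of the 10 genes in each library, with trf4Δ in red and left of the wild type in blue; points are libraries and bars the mean of 2. PHO84 stands above the other genes in both genotypes, and PHO91 is the gene whose libraries overlap.

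PHO84 (YML123C, chrXIII:24037-25800) encodes the high-affinity proton-coupled phosphate transporter of the plasma membrane and is a known target of Pho4. It had 77388 and 70841 counts in trf4Δ libraries, against 117705 and 118205 counts in wild-type libraries, or 1285 and 1177 CPM against 2311 and 2303 CPM. Both trf4Δ libraries were thus well below both wild-type libraries, which lay close together. The level was 1.87-fold lower in trf4Δ, with a log2 fold change of -0.91 (SE 0.10) and an adjusted p of 0.000246 by edgeR. PHO84 ranked at the 99.1 percentile of level among all features, and the tenth of features with the highest levels, which holds PHO84, had a median log2 fold change of -0.53. Under scaling by library size alone the log2 fold change was -0.58, still past the threshold. The features whose profile over the 4 libraries was nearest to that of PHO84, by Euclidean distance of centred log2 CPM among 6058 features with a mean count of at least 50, were HIS1 (distance 0.0284), REX4 (0.0422), RPL5 (0.0437), SUN4 (0.0566) and RPS23B (0.0571).

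Reads of PHO84 cannot be assigned to a strand. RefSeq places the antisense RNA on the plus strand at chrXIII:23564-26578, where its 3015 bases cover the whole of PHO84 and the whole of YML122C. No row carries the RefSeq name of the antisense RNA (YNCM0001W), so it has no value of its own here. The strand setting of the counting is not given in the sources used here. Of 8 rows that lie entirely inside another row's gene on the opposite strand, 8 had 0 counts in all 4 libraries. Of 52 rows inside another row's gene on the same strand, 41 had 0 counts in all 4 libraries. The others, mostly rows of the mitochondrial genome, had counts, so the rule for overlapping genes is not settled by these rows. If strand was not used, the PHO84 value is the sum of sense and antisense reads. YML122C, an uncharacterised open reading frame 237 bases before the PHO84 start codon, had 52 and 73 counts in trf4Δ libraries, against 38 and 31 counts in wild-type libraries. Per length this was 0.311% and 0.477% of the PHO84 signal in trf4Δ libraries, against 0.149% and 0.121% in wild-type libraries. The YML122C difference did not pass the test (log2 fold change 0.62, SE 0.35, adjusted p 0.16 by edgeR), although under library size alone it passed at 0.94 (adjusted p 0.0498 by edgeR).

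PHO89 (YBR296C, chrII:796798-798522) encodes the other high-affinity transporter, which couples phosphate to sodium and works best at alkaline pH. It had 217 and 136 CPM in trf4Δ libraries, against 86.0 and 85.4 CPM in wild-type libraries. Both trf4Δ libraries were higher, but they differed from each other far more than the wild-type libraries did. The log2 fold change was 1.04 (SE 0.19, adjusted p 0.00246 by edgeR). Leaving out trf4Δ library 1 gave 0.67 and leaving out trf4Δ library 2 gave 1.34. Such a fit holds no spread between trf4Δ libraries, so only the sizes are given. Hence the direction did not rest on one library whereas the size did.

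GIT1 (YCR098C, chrIII:297049-298605) encodes the permease for glycerophosphoinositol and glycerophosphocholine, phosphate-containing compounds released from membrane lipids. It had 307 and 334 CPM in trf4Δ libraries, against 125 and 122 CPM in wild-type libraries. The groups were far apart relative to their spread, and the level was 2.59-fold higher in trf4Δ (log2 fold change 1.37, SE 0.09, adjusted p 2.48e-05 by edgeR). This was the largest change among the 10 genes. The tenth of features at the level of GIT1 had a median log2 fold change of -0.26, on the other side of 0.

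The low-affinity transporters of the plasma membrane, Pho87 and Pho90, serve cells that have phosphate in plenty. PHO90 (YJL198W, chrX:60844-63489) had 168 and 165 CPM in trf4Δ libraries, against 247 and 240 CPM in wild-type libraries. Its level was 1.46-fold lower in trf4Δ (log2 fold change -0.55, SE 0.08, adjusted p 0.000869 by edgeR), and under library size alone the log2 fold change was -0.22 (adjusted p 0.046 by edgeR). The tenth of features at the level of PHO90 had a median log2 fold change of -0.26. PHO87 (YCR037C, chrIII:194414-197185) had 83.7 and 86.3 CPM in trf4Δ libraries, against 76.2 and 76.8 CPM in wild-type libraries. Although the groups did not overlap, the difference did not pass (log2 fold change 0.15, SE 0.09, adjusted p 0.16 by edgeR), and with library size alone it passed at 0.47. PHO91 (YNR013C, chrXIV:649028-651712), whose product exports phosphate from the vacuole, had 160 and 147 CPM in trf4Δ libraries, against 152 and 172 CPM in wild-type libraries. Its groups overlapped, and the sign of its log2 fold change of -0.08 (SE 0.10, adjusted p 0.489 by edgeR) turned with the scaling, to 0.24 under library size alone.

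Ratios inside one library do not depend on the scaling between libraries, and they describe the mix of transporter signal, in which antisense reads of PHO84 may be included. Counts were divided by gene length. Shares were taken of the sum over the 4 plasma membrane transporters of inorganic phosphate (PHO84, PHO89, PHO87 and PHO90), which leaves out GIT1. PHO84 made up 76.8% and 79.5% of this sum in trf4Δ libraries, against 88.5% and 88.6% in wild-type libraries. PHO89 made up 13.3% and 9.40% in trf4Δ libraries, against 3.37% and 3.36% in wild-type libraries. PHO84 thus gave most of the signal of these transporters, of either strand, in all 4 libraries, with a smaller share in trf4Δ. PHO90 had 2.10 and 2.01 times the signal of PHO87 in trf4Δ libraries, against 3.39 and 3.27 times in wild-type libraries. GIT1 reached 0.271 and 0.321 times the signal of PHO84 in trf4Δ libraries, against 0.0614 and 0.0602 times in wild-type libraries. None of these ratios overlapped between genotypes, and neither did the levels of 81.9% of all features. The ratios are given without a test, since an exact permutation test of 2 libraries against 2 cannot go below p = 0.33.

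**Figure D2:**
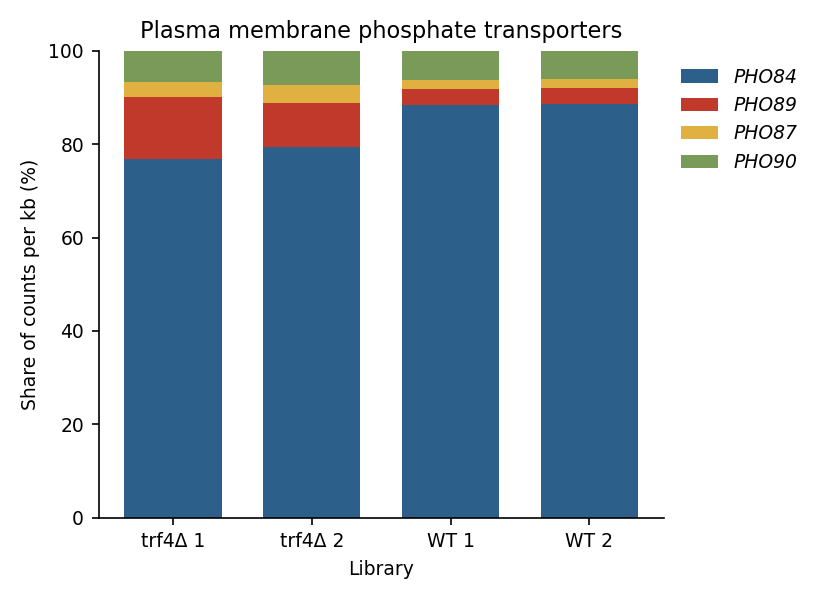
Share of each plasma membrane phosphate transporter (PHO84, PHO89, PHO87 and PHO90, without GIT1) in their summed counts per kb (%, vertical axis) for the 4 libraries, trf4Δ on the left. PHO84 falls short of 80% in both trf4Δ libraries and exceeds 88% in both wild-type libraries, and PHO89 takes a larger share in trf4Δ.

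Among the regulators, PHO81 (YGR233C, chrVII:954674-958210) encodes the inhibitor of the Pho80-Pho85 kinase and is itself turned on by Pho4. It had 215 and 202 CPM in trf4Δ libraries, against 315 and 356 CPM in wild-type libraries, so that both trf4Δ libraries were lower. The log2 fold change was -0.69 (SE 0.10, adjusted p 0.000638 by edgeR), and it was -0.36 under library size alone, still past the threshold. The tenth of features at the level of PHO81 had a median log2 fold change of -0.26. PHO4 (YFR034C, chrVI:225020-225958), the transcription factor gene, had 36.8 and 34.0 CPM in trf4Δ libraries, against 48.3 and 50.9 CPM in wild-type libraries. Its log2 fold change of -0.49 (SE 0.10, adjusted p 0.00398 by edgeR) dropped to -0.16 under library size alone, where the call was lost.

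Of the kinase and its cyclin, only the kinase gene passed the test. PHO85 (YPL031C, chrXVI:492018-493037) encodes a cyclin-dependent kinase that also works with other cyclins in glycogen metabolism and the cell cycle. It had 66.9 and 65.6 CPM in trf4Δ libraries, against 45.6 and 45.0 CPM in wild-type libraries. The level was 1.46-fold higher in trf4Δ (log2 fold change 0.55, SE 0.09, adjusted p 0.00135 by edgeR). The cyclin gene PHO80 (YOL001W, chrXV:325249-326130) had 27.7 and 28.8 CPM in trf4Δ libraries, against 24.8 and 24.3 CPM in wild-type libraries, and did not pass (log2 fold change 0.20, SE 0.11, adjusted p 0.128 by edgeR), although it passed at 0.52 under library size alone. Per length, PHO81 had 1.94 and 1.75 times the signal of PHO80 in trf4Δ libraries, against 3.17 and 3.65 times in wild-type libraries. PHO4 had 1.25 and 1.11 times the signal of PHO80 in trf4Δ libraries, against 1.83 and 1.97 times in wild-type libraries. PHO80 had 0.479 and 0.508 times that of PHO85 in trf4Δ libraries, against 0.630 and 0.624 times in wild-type libraries. Relative to the cyclin gene, both the inhibitor and the transcription factor were thus lower in trf4Δ in these libraries.

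Level per length gives the order of the genes within a genotype, as CPM per kb of gene length (introns included). In trf4Δ PHO84 led with 698 ± 43.1 CPM per kb (SD, n = 2), GIT1 followed with 206 ± 12.3 CPM per kb and PHO89 with 102 ± 33.3 CPM per kb. PHO85 (65.0 ± 0.897), PHO90 (62.9 ± 0.643), PHO81 (59.0 ± 2.63) and PHO91 (57.1 ± 3.34 CPM per kb) formed a narrow middle range. PHO4 (37.7 ± 2.06), PHO80 (32.0 ± 0.915) and PHO87 (30.7 ± 0.658 CPM per kb) were lowest. In the wild type PHO84 led by a wider margin with 1308 ± 3.32 CPM per kb (SD, n = 2), ahead of PHO81 (94.9 ± 8.09), PHO90 (91.9 ± 1.76) and GIT1 (79.5 ± 1.37 CPM per kb). PHO91 (60.5 ± 5.31), PHO4 (52.8 ± 1.96), PHO89 (49.7 ± 0.251) and PHO85 (44.4 ± 0.381 CPM per kb) came next. PHO80 (27.8 ± 0.405) and PHO87 (27.6 ± 0.137 CPM per kb) were lowest. Neighbours in this order whose libraries overlapped were PHO81 and PHO91 in trf4Δ, and PHO81 with PHO90 and PHO80 with PHO87 in the wild type. GIT1 and PHO89 stood directly after PHO84 in trf4Δ, whereas they were the fourth and the seventh gene in the wild type.

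**Figure D3:**
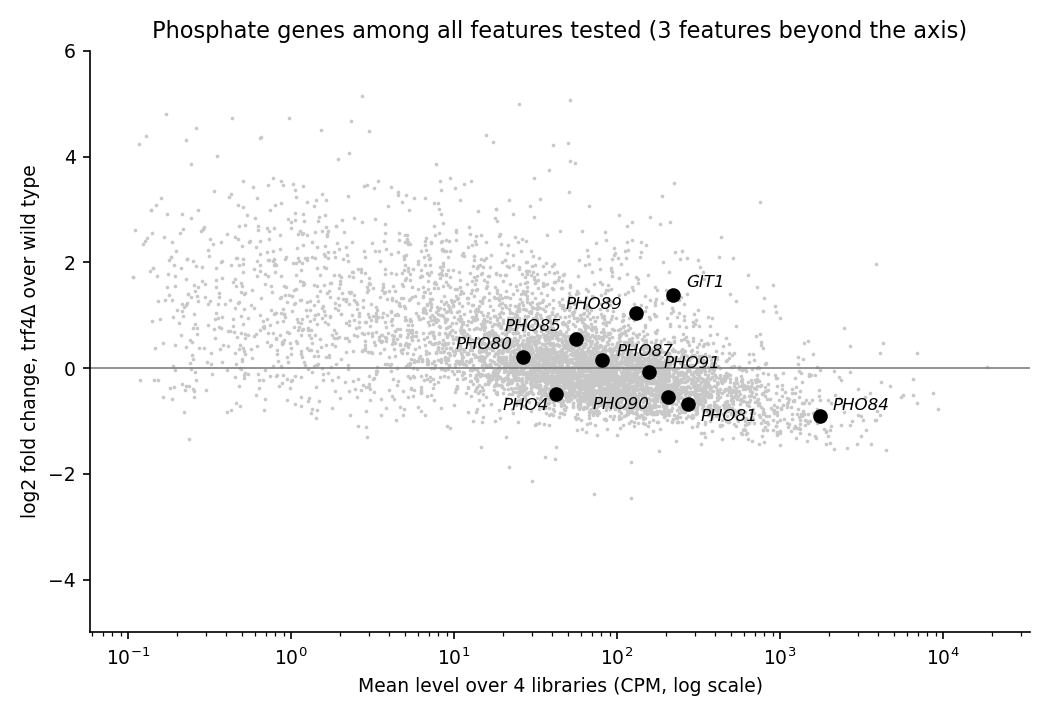
log2 fold change of trf4Δ over wild type (vertical axis) against mean level over the 4 libraries (CPM, log axis) for all 6372 features tested in grey, of which 3 lie beyond the axis, and the 10 genes in black. Grey points drift downward with level, PHO84 lies at the abundant end at -0.91, and GIT1 and PHO89 lie above 0 at 1.37 and 1.04.

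Other genes of the PHO regulon were taken as a list of 12 known Pho4 targets. The list was chosen with earlier results of these data known. Of these 12 genes, 10 were lower, 1 was higher and 1 did not pass, which makes 91.7% called in either direction, beside 60.1% of all features. Over all features 28.9% were lower. The median log2 fold change of the 12 genes was -1.13, beside 0.01 over all features. PHO12, a secreted acid phosphatase gene, fell most. It had 38.2 and 36.6 CPM in trf4Δ libraries, against 206 and 207 CPM in wild-type libraries (log2 fold change -2.47, SE 0.09). The related phosphatase genes PHO11 (-1.87) and PHO5 (-1.57) were also lower. PHO11 and PHO12 share 82.2% and 81.1% of their 76-base windows with another place in the genome, so the split between them is uncertain, while all windows of the 10 transport and control genes were unique. PHM6, a phosphate-responsive gene of unknown function, fell by 1.73 on the log2 scale (SE 0.12).

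The 4 genes of the vacuolar transporter chaperone complex, which makes polyphosphate, were all lower, with VTC1 at -1.17, VTC3 at -1.12, VTC4 at -0.97 and VTC2 at -0.96. All 4 lay in the tenth of features with the highest levels, whose median log2 fold change was -0.53. SPL2, whose product restrains low-affinity transport, had 2735 and 1805 counts in trf4Δ libraries, against 4328 and 4213 counts in wild-type libraries (log2 fold change -1.15, SE 0.18). PHO86, which is needed for Pho84 to leave the endoplasmic reticulum, fell by 0.59 (SE 0.09). PHO8, the vacuolar alkaline phosphatase gene, had a log2 fold change of -0.05 and did not pass (adjusted p 0.727 by edgeR). PHM8, a nucleotide and lipid phosphatase gene, was the one that rose, with 184 and 219 CPM in trf4Δ libraries, against 94.2 and 95.8 CPM in wild-type libraries (log2 fold change 1.09, SE 0.10). Adjusted p-values of the 11 calls ran up to 0.00106 by edgeR. CACGTG was found before 11 of the 12, PHM8 being without it, and of their 16 matches 2 had the disfavoured flanking thymine.

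**Figure D4:**
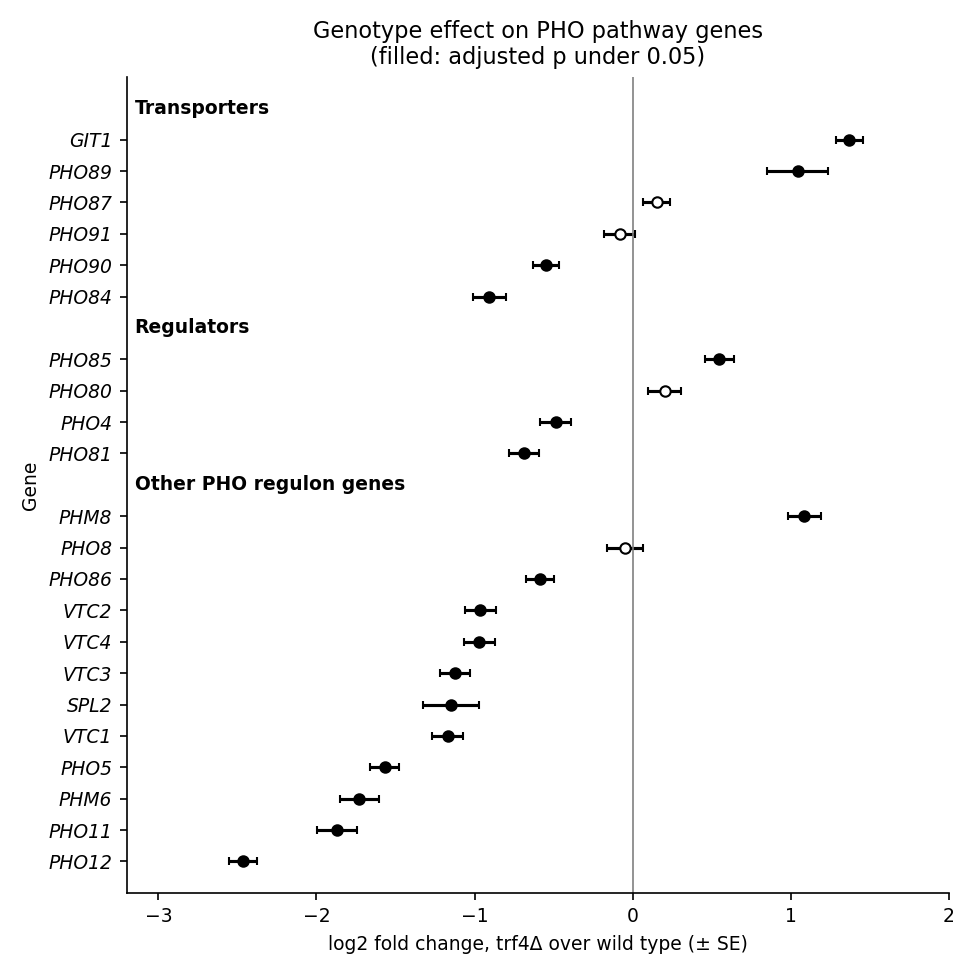
log2 fold change of trf4Δ over wild type with SE (horizontal axis) for the transporter genes, the regulator genes and 12 other PHO regulon genes; filled points have an adjusted p under 0.05. PHO84, PHO81, PHO90 and PHO4 lie on the lower side with 10 regulon genes. GIT1, PHO89 and PHM8 lie on the higher side at 1.04 to 1.37, and PHO85 at 0.55.

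Of the 6 genes with CACGTG, PHO84 and PHO81 thus shared the direction of most regulon genes. PHO89 and GIT1 were higher, and PHO87 and PHO91 did not pass. PHO90 and PHO4, which had no CACGTG in the window searched, were also lower. The shift of PHO84 relative to PHO89 does not depend on the scaling between libraries. PHO84 had 5.78 and 8.46 times the per-length signal of PHO89 in trf4Δ libraries, against 26.3 and 26.4 times in wild-type libraries. Such a ratio cannot give the sign of either change, and each single change moves with the scaling. Under library size alone the log2 fold changes were -0.58 for PHO84, -0.36 for PHO81, 1.37 for PHO89 and 1.69 for GIT1.

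Of 12 further genes of phosphate handling, 3 were higher and 3 lower, or 50.0% called, beside 60.1% of all features. PIC2, a mitochondrial phosphate and copper carrier gene, had 252 and 249 CPM in trf4Δ libraries, against 55.8 and 44.3 CPM in wild-type libraries (log2 fold change 2.32, SE 0.12, adjusted p 1.34e-05 by edgeR). MIR1, the main mitochondrial phosphate carrier gene, did not pass (-0.17, SE 0.11). GDE1, whose product cleaves the glycerophosphocholine that Git1 can import, rose by 0.80 (SE 0.10). PHO92, an RNA-binding protein gene, rose by 2.68 (SE 0.35) at 2.47 and 3.18 CPM in trf4Δ libraries, against 0.550 and 0.331 CPM in wild-type libraries. The lower genes were PHO88 (listed as SND3, -0.77) and the inositol pyrophosphate kinase genes VIP1 (-0.46) and KCS1 (-0.44), and the calls of VIP1 and KCS1 were lost under library size alone, at -0.14 and -0.11.

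Of 9 genes for other cyclins that pair with Pho85, PCL8 (0.57, SE 0.11) and PCL5 (0.49, SE 0.09) were higher, CLG1 (-0.43, SE 0.13) was lower and 6 did not pass, or 33.3% called, beside 60.1% of all features. The CLG1 call was lost when trf4Δ library 1 was left out (-0.33) and when wild-type library 2 was left out (-0.25). Of 6 genes whose products act on silencing through antisense RNA, RRP6, the nuclear exosome nuclease gene, was lower at 192 and 188 CPM in trf4Δ libraries, against 294 and 312 CPM in wild-type libraries (log2 fold change -0.67, SE 0.08, adjusted p 0.00038 by edgeR). SET1, a histone methyltransferase gene, was lower by a similar amount (-0.61, SE 0.09). HDA1, a histone deacetylase gene, had -0.24 (SE 0.08, adjusted p 0.0405 by edgeR), and its call was lost when any single library was left out, with an adjusted p between 0.0826 and 0.177 by edgeR. Its sign turned under library size alone, to 0.08, and its adjusted p was 0.0544 by edgeR with a minimum of 10 counts per library. HDA2, HDA3 and PHO23 did not pass, so that 50.0% of this list was called, beside 60.1% of all features.

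The nearest annotated genes on both sides of the 10 genes, 20 in all, had 7 higher and 5 lower, or 60.0% called, the background share. Beside PHO89, the convergent gene PCA1, a metal-pump gene, rose by 1.77 (SE 0.11), with 165 and 190 CPM in trf4Δ libraries, against 55.3 and 48.7 CPM in wild-type libraries. PCA1 ends 298 bases from the end of PHO89 on the opposite strand. On the far side of GIT1, 2226 bases upstream, YCR099C rose by 1.56 (SE 0.15), whereas TUB3, the tubulin gene next to the end of PHO84, had -0.01 (SE 0.08) and did not pass. The other called neighbours were TYC1 (2.92), MBB1 (1.54), BUD5 (0.77), YNR014W (0.61) and RBK1 (0.58) on the higher side, and TRM44 (-0.72), RRP6 (-0.67), URK1 (-0.56), YHB1 (-0.56) and UBP12 (-0.40) on the lower side. TYC1 rested on few reads, with 129 and 122 counts in trf4Δ libraries, against 7 and 21 counts in wild-type libraries. MBB1 had 269 and 259 counts in trf4Δ libraries, against 88 and 66 counts in wild-type libraries. The YNR014W call was lost when either wild-type library was left out (adjusted p 0.0607 and 0.106 by edgeR), and those of URK1 (-0.24), YHB1 (-0.24) and UBP12 (-0.08) were lost under library size alone.

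**Figure D5:**
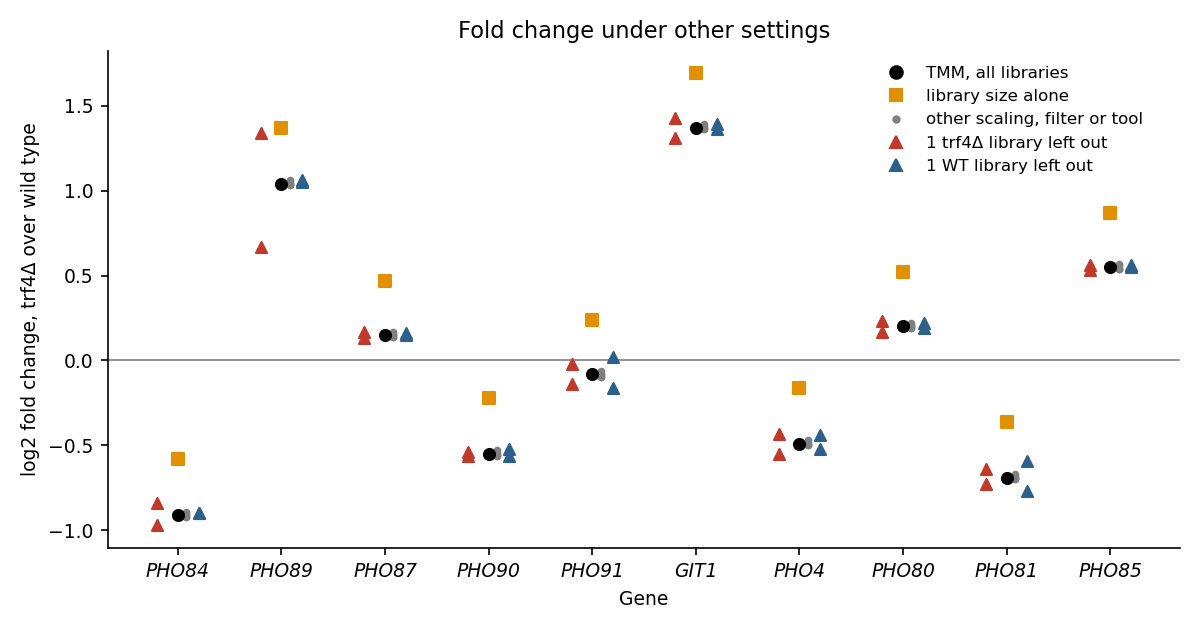
log2 fold change of trf4Δ over wild type (vertical axis) for the 10 genes with TMM scaling (black), library size alone (orange), other scalings, filters or tools (grey) and with a library left out (triangles, red for trf4Δ and blue for wild type). All genes shift upward under library size alone, PHO84 stays below 0 at every setting, and PHO89 ranges from 0.67 to 1.37.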

How the data were processed

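Per the labels, RNA was depleted of ribosomal RNA and sequenced as paired 76-base reads with a ScriptSeq kit. The deposited table holds whole-number counts per gene for 4 libraries, which the authors left unnormalised. STAR 2.5.3 and sacCer3 are named in the submitters' processing notes; the counting program, annotation and strand setting are not given in the sources used here. The paper paired with the series describes other samples, so a standard count design was used.

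Features were kept by filterByExpr (6372), scaled by TMM (factors 1.13 and 1.11 for trf4Δ, 0.904 and 0.885 for the wild type) and tested by quasi-likelihood in edgeR 4.0.16 (R 4.3.3), two-sided, on all 4 libraries. P-values were adjusted by Benjamini-Hochberg over all features, with a threshold of 0.05. Each SE was derived from the fold change and its F statistic. Replicates were more different than sampling noise (chi-square per degree of freedom 101 in trf4Δ and 61.4 in the wild type). On data simulated for trf4Δ over wild type (6247 genes), 98.4% of 64 genes changed by 1 on the log2 scale and 46.0% of 63 changed by 0.5 were recovered. The simulation used the same dispersion for all genes and gave 166 calls, against 3832 in the real data. Its shares therefore do not give the power in the real data.

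Alternatives were RLE factors, library size alone, TMM from nuclear open reading frames, a robust fit, no filter or a minimum of 10 counts per library, DESeq2 1.42.0, a threshold of 0.01 and leaving out each library. Named were all 10 genes, TRF4, up to 5 called genes per list, called neighbours and the 5 features nearest to PHO84. Other list members stand beside a result and were named after their values were seen. Members and lists were chosen with earlier results of these data known. Promoters and positions come from RefSeq R64.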

Additional observations from a re-analysis of the deposited data

How the results depend on the processing

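Under library size alone the median over all features moved to a log2 fold change of 0.34, against 0.01 with TMM, and every change shifted upward. That setting gave 3162 features higher and 739 lower, in place of 1992 and 1840. It gave 5 of the 10 phosphate genes as higher in place of 3, since PHO87 (0.47) and PHO80 (0.52) passed, and 3 lower in place of 4, since PHO4 (-0.16) did not. PHO91 changed sign at 0.24 and also without the second wild-type library, at 0.02, and it was called in neither. Phosphate handling genes had 7 higher and 1 lower, Pho85 cyclins 6 higher and 0 lower, antisense silencing genes 3 higher, and neighbours 12 higher and 2 lower. The other PHO regulon genes kept 10 lower and 1 higher.

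Leaving out a library used a fit that assumes the lone library varies like the other group. PHO84 then ranged from -0.97 to -0.84, always past the threshold, and the counts stayed at 3 higher and 4 lower for the 10 genes. Pho85 cyclins called lower ranged from 0 to 1, and antisense silencing genes called higher from 0 to 1. At an adjusted p threshold of 0.01, 0 Pho85 cyclins were lower. Other scalings, filters and DESeq2 left PHO84 between -0.92 and -0.89 and changed no call among the 10 genes. No paired analysis was possible because the labels give no number or other tie that matches a trf4Δ library to a wild-type library, and the numbers 1 and 2 used here only follow the order of deposition. With 2 libraries per group, changes of about 0.5 on the log2 scale were often missed in simulated data. Far fewer genes changed there than were called here, so that share cannot be carried over to the real data.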
